A study of Danio rerio with 20 samples.

Results

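The genes described here are the claudins and keratins of the zebrafish embryo: the rows of a TPM table whose symbol starts with cldn or krt, together with cyt1 and cyt1l, which encode keratins. TPM is a length-corrected share of the transcripts in a library, scaled to the same sum in each. The rule found 65 of the 32057 gene IDs, and 42 of them were measured, meaning a mean of at least 1 TPM over the 20 libraries. They comprised 40 claudins (22 measured), 18 type I keratins (13 measured), 3 type II keratins (all measured) and 4 genes that match by name only. These last were krtcap2, whose mammalian counterpart is a subunit of an oligosaccharyltransferase, the claudin-domain genes cldnd1 and cldnd1a, and the keratin-like krt222. Symbols are in lower case, IDs are added where several carry 1 symbol, and the split of keratins into types comes from general knowledge, not from the table.

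RNA was taken from pools of about 50 whole embryos at 8, 10, 12, 14 and 16 hours post fertilization (hpf), with 2 libraries per group, numbered 1 and 2. The PNP groups came from crosses of fish carrying puma-/-, noxa-/- and p21-/-. The MPNP groups came from crosses of fish that also carried 1 mutant copy of mdm2, so that each pool mixed mdm2-/-, mdm2+/- and mdm2+/+ embryos, all on the same triple mutant background; embryos were not genotyped. About 25% of an MPNP pool is expected to lack mdm2, which dilutes any change in those embryos, and no group was wild type. Mdm2 holds down the tumour suppressor p53. The mdm2 transcript lay between 116 and 149 TPM in MPNP and between 112 and 125 TPM in PNP at 8 hpf, and between 317 and 325 against 113 and 114 TPM at 16 hpf, but a TPM over the whole gene does not tell mutant from normal transcripts. From 13080 to 15326 genes were at or above 1 TPM in a library. TPM keeps no read depth, so the reads behind a value are unknown. No label states that the 2 libraries of a group, or the libraries of different stages, were separate crosses. The p-values measure the spread between these samples, which may be technical, and averages over stages treat the stages as independent.

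Claudins are membrane proteins with several membrane-spanning segments that form the strands of tight junctions and set how freely ions and water pass between epithelial cells. Keratins are intermediate filament proteins that assemble as pairs of a type I and a type II chain and give epithelial sheets their mechanical strength. At the stages studied the zebrafish embryo is covered by the enveloping layer, a thin sheet that seals it from the water, spreads over the yolk during epiboly and becomes the periderm, and the basal epidermis forms beneath it. krt4, krt5, krt8, krt18a.1 and cyt1 are known as genes of these surface layers, and cldne as a claudin of the enveloping layer. In whole embryos, fewer cells of a type and less RNA per cell cannot be told apart.

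Keratin transcripts far outnumbered claudin transcripts. Keratins took from 1.39% to 2.21% of all TPM in a library, and claudins from 0.0626% to 0.114%. The 10 most abundant members were all keratins and held 94.9% of the TPM of the 65 genes. krt4, a type II keratin, and krt18a.1, the type I partner of krt8 in simple epithelia, led with means of 3249 and 3248 TPM over the 20 libraries. krt8 (2311 TPM), krt5 (2139 TPM) and cyt1 (2113 TPM) followed, and their ranges over libraries overlapped. Next in mean level were krt92 (1505 TPM), cyt1l (1287 TPM), krt97 (980.2 TPM), krt17 (883 TPM) and krt99 (737 TPM), again with overlapping ranges. Among claudins cldne led with 246 TPM, ahead of cldn23.1 with 108 TPM, in the mean over all stages. At 16 hpf cldni had the higher mean over both pool types, 208 TPM against 129.9 TPM for cldne and 55.8 TPM for cldn23.1. The other measured members had means from 1.2 TPM (krt18b) to 96.2 TPM (cldnb).

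Several keratins differed between the libraries numbered 1 and those numbered 2 at every stage, in both pool types. Of the 42 measured members 28 differed with the number, where 54.5% of all genes tested did; 16 were higher and 12 lower in number 2, against 40.4% and 14.1% of all genes (limma, adjusted p under the 0.05 threshold; adjusted p is a 2-sided value corrected by Benjamini-Hochberg over 14774 genes, here and below). krt8 was lower in number 2 by 0.48 ± 0.04 (SE) on the log2(TPM + 1) scale, on which all differences below are given, krt18a.1 by 0.43 ± 0.03, cyt1 by 0.40 ± 0.03, cyt1l by 0.38 ± 0.03, krt92 by 0.37 ± 0.03 and krt17 by 0.30 ± 0.03, with the same direction in 10 of 10 groups for each (largest limma adjusted p = 1.1e-06). cldn12 was higher in number 2 by 0.50 ± 0.04 in 10 of 10 groups, and krt99 by 0.30 ± 0.03. krt1-19e, known in zebrafish as a keratin of basal epidermis, was between 0 and 0.37 TPM in the 10 libraries numbered 1 and between 1.99 and 15.5 TPM in those numbered 2. These 2 sets of krt1-19e values did not overlap at any stage. The gene, counted among the 16 higher ones, reached a mean of 1 TPM only through the libraries numbered 2. Also among the 16, krt18b likewise had a mean below 1 TPM over the libraries numbered 1. The calls of krt1-19e and krt18b in this comparison are therefore tied to the filter that selected them. What a number marks is not in the labels. Because of this spread the tests below are given without a block for the number and, where a call differs, with the number within stage as a block.

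**Figure D1:**
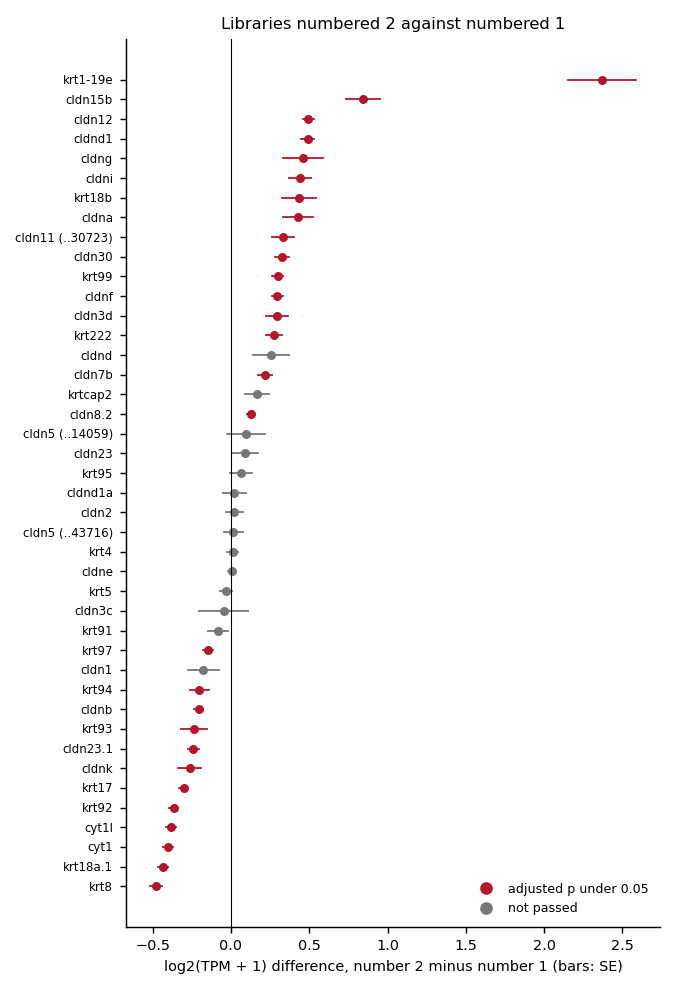
Difference between libraries numbered 2 and 1 for the 42 measured members (x axis, log2(TPM + 1) difference with SE; y axis, members; red, adjusted p under 0.05). krt1-19e lies far to the right, at 2.37 ± 0.22, and krt8, krt18a.1 and cyt1 are the lowest 3, between -0.48 and -0.40. krt1-19e and krt18b were measured only because of their values in the libraries numbered 2.

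The mean of the summed keratin transcripts was highest at 16 hpf in both pool types. In PNP they amounted to 15678 ± 2536 TPM at 8 hpf (SD, n = 2) and 20802 ± 1499 TPM at 16 hpf, and in MPNP to 16149.9 ± 2680.3 and 20758 ± 1839 TPM. The libraries of 8 and 16 hpf did not overlap. The summed claudins were highest at 8 hpf and lowest at 12 hpf, with 1133 ± 7.83 TPM at 8 hpf, 719 ± 32.7 TPM at 12 hpf and 809.8 ± 19.1 TPM at 16 hpf in PNP, and 1127 ± 4.25, 629.8 ± 5.04 and 900.4 ± 94.0 TPM in MPNP. Type I exceeded type II keratin transcripts in every library, by a ratio from 1.26 to 1.63. It reached 1.63 in the libraries numbered 1 and 1.37 in those numbered 2. cldne made up 42.0 ± 0.988% of claudin TPM in PNP at 8 hpf and 16.5 ± 1.26% at 16 hpf.

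The first question was how these genes change as gastrulation ends and somites form. Between 8 and 16 hpf in PNP 29 of the 42 measured members changed, where 64.3% of all genes tested did: 19 rose and 10 fell, against 37.7% and 26.6% of all genes (limma). Of the risers cldni, cldn1, krt95 and krt18b had means below 1 TPM at 8 and 10 hpf. They reached an overall mean of 1 TPM only through later stages, so their calls as risers are tied to the filter. Counted by class, 7 type I keratins rose and 1 fell, 2 of 3 type II keratins rose, 7 claudins rose while 8 fell, and of the genes matched by name only krtcap2 (1.31 ± 0.21), krt222 (1.38 ± 0.21) and cldnd1a (0.42 ± 0.16) rose. The call of cldnd1a was lost without PNP library 2 of 8 hpf or either PNP library of 16 hpf (limma adjusted p from 0.086 to 0.19), and in MPNP it did not pass (0.094). In MPNP 29 changed as well (67% of all genes), 18 up and 11 down, where 40.1% and 26.9% of all genes went. In both pool types 27 members passed with the same direction. The share of all genes that did so was not counted, so the 27 are not read as a result about the members. The median member rose by 0.41 in PNP against 0.17 for all genes, and by 0.34 in MPNP against 0.22.

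Among the type II keratins krt4 rose. It was at 2449.6 and 2304 TPM in PNP libraries 1 and 2 at 8 hpf and at 4102 and 4341 TPM at 16 hpf, and at 2585 and 2396 and then 4187 and 4477 TPM in MPNP. The stages did not overlap in either pool type, and the change in PNP was 0.83 ± 0.11 (limma adjusted p = 2.7e-05). krt5 rose by 0.72 ± 0.11 (limma adjusted p = 8.1e-05), from 1653 and 1555 to 2580.3 and 2721 TPM. krt8 went the other way, from 3119 and 2141 to 1719.9 and 1450.1 TPM in PNP and from 3457 and 2405 to 1869.5 and 1284 TPM in MPNP. Its fall of -0.90 ± 0.32 passed in MPNP (limma adjusted p = 0.024) but not without MPNP library 1 of 8 hpf or library 2 of 16 hpf (0.17 and 0.18), and in PNP the value of -0.71 ± 0.32 did not (limma adjusted p = 0.067, but 4.5e-06 with the replicate block).

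The type I partner krt18a.1 changed little up to 12 hpf, with PNP values of 3993 and 2812 TPM at 8 hpf, 4341 and 3012 TPM at 12 hpf and 2679.9 and 2215 TPM at 16 hpf. The change of -0.46 ± 0.29 did not pass without the block (limma adjusted p = 0.18, and 0.00016 with it). The type I keratins cyt1l, cyt1 and krt17 rose together. cyt1l went from 629 and 441 TPM to 2735 and 2145 TPM in PNP, a change of 2.20 ± 0.26, cyt1 from 1413 and 1008 to 3755 and 2927 TPM (1.47 ± 0.27) and krt17 from 502 and 390.3 to 1307 and 1135 TPM (1.46 ± 0.21; limma adjusted p from 6.3e-06 to 0.00033 for the trio). In each of them the 8 and 16 hpf libraries did not overlap. krt97 was the type I keratin that fell, from 1435 and 1285 to 475 and 486 TPM in PNP (-1.50 ± 0.13, limma adjusted p = 4.6e-07); its called steps were the last pair, with -0.57 ± 0.09 from 12 to 14 hpf and -0.61 ± 0.09 from 14 to 16 hpf. krt92 and krt99 changed by 0.39 ± 0.25 and -0.34 ± 0.21, which passed only with the block (limma adjusted p = 4.1e-05 and 0.00081, against 0.18 and 0.18 without).

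**Figure D2:**
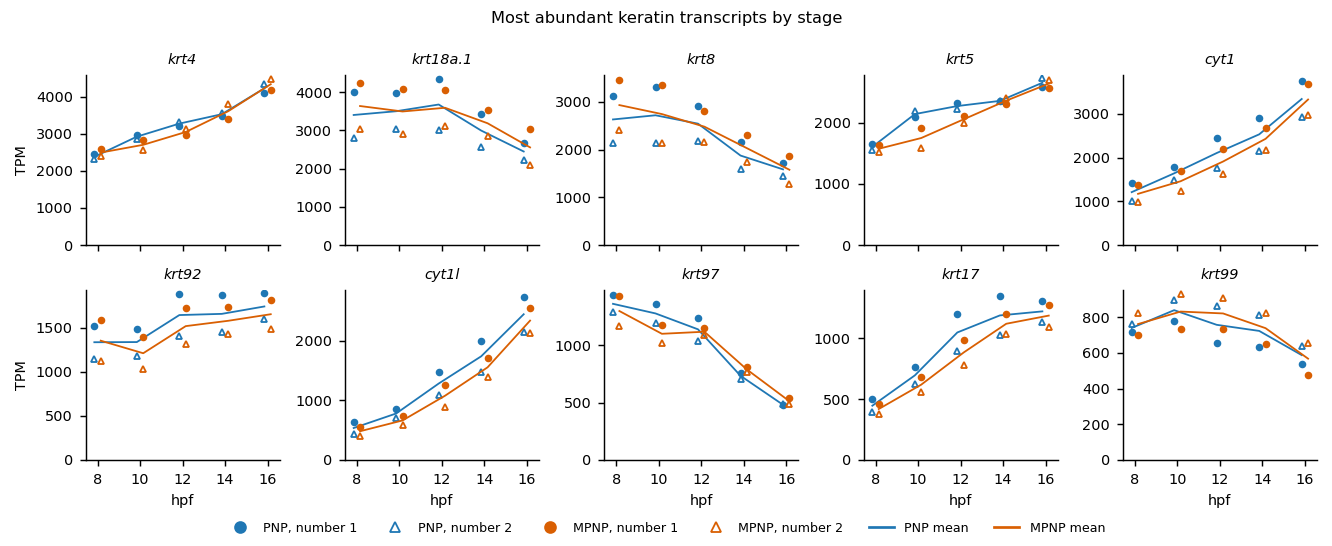
TPM of the 10 most abundant keratins (y axis, from 0) against hours post fertilization (x axis) in PNP (blue) and MPNP (orange), with each library as a point, a filled circle for number 1 and an open triangle for number 2, and lines through the means of 2 libraries. cyt1, cyt1l and krt17 climb in both pool types, krt97 and krt8 decline, and the circles of krt18a.1, krt8 and cyt1 lie above the triangles.

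Some less abundant type I keratins rose at later stages, krt95 and krt18b from near 0 and krt91 and krt94 from levels present at 8 hpf. krt91 was at 30.8 and 28.0 TPM at 8 hpf, 26.7 and 34.0 TPM at 10 hpf and 73.1 and 59.2 TPM at 12 hpf in PNP. Its step from 10 to 12 hpf, averaged over both pool types, was 1.24 ± 0.11 (limma adjusted p = 2.5e-06). krt95 stood at or below 0.11 TPM in all 8 libraries of 8 and 10 hpf, reached 3.97 and 4.78 TPM in PNP at 14 hpf and stood at 2.97 and 3.62 TPM at 16 hpf. krt18b, a second relative of keratin 18, stayed at or below 0.94 TPM up to 12 hpf and was at 3.56 and 4.29 TPM in PNP at 16 hpf (1.91 ± 0.36 from 8 hpf, limma adjusted p = 0.00039). Both krt95 and krt18b passed the filter only through their later stages. krt94 rose late, with 2.39 and 1.88 TPM at 8 hpf, 1.97 and 1.95 TPM at 14 hpf and 4.21 and 3.98 TPM at 16 hpf in PNP. In MPNP krt94 was at 3.41 and 3.39 TPM at 8 hpf and 5.14 and 4.11 TPM at 16 hpf, and that change did not pass. Its step from 14 to 16 hpf, averaged over pools, was 0.71 ± 0.13 (limma adjusted p = 0.0024).

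Claudins took different courses between 8 and 16 hpf: some fell, some rose, and others were called in neither direction in PNP. Of the risers some were near 0 at 8 hpf and others were already present. cldne fell from 481 and 470.0 TPM at 8 hpf to 297 and 303 at 10 hpf, 217 and 215 at 12 hpf, 158 and 167 at 14 hpf and 138 and 129 TPM at 16 hpf in PNP. The libraries of neighbouring stages did not overlap, the whole change was -1.83 ± 0.08 (limma adjusted p = 8.9e-10), and the steps were called up to 14 hpf. cldn23.1 fell by 1.93 ± 0.18, from 217 and 197 to 59.3 and 48.2 TPM, and cldn23 fell by 2.62 ± 0.19, from 12.2 and 10.9 to 0.95 and 1.13 TPM. cldn23 was called lower in each of the 4 steps, but the call from 12 to 14 hpf was lost without MPNP library 2 or PNP library 2 of 12 hpf, or MPNP library 1 or PNP library 2 of 14 hpf (limma adjusted p up to 0.056). That from 14 to 16 hpf was lost without any one of 6 of the 8 libraries (up to 0.13) and held only without MPNP library 1 or PNP library 2 of 14 hpf. Other members that fell in PNP were cldnd (-2.40 ± 0.30), cldnd1 (-1.46 ± 0.32), cldn30 (-1.36 ± 0.23), cldnf (-1.07 ± 0.21), cldn8.2 (-1.01 ± 0.11) and cldnk (-1.01 ± 0.23), the last known in zebrafish from myelin-forming glia. Together with krt97 these are the 10 that fell, with limma adjusted p up to 0.0019.

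The largest rise of any member was that of cldni, known from zebrafish epidermis. In PNP it was at 0.52 and 1.04 TPM at 8 hpf, 0.68 and 1.05 at 10 hpf, 21.5 and 35.3 at 12 hpf, 101 and 130.3 at 14 hpf and 151 and 199 TPM at 16 hpf. MPNP libraries held 0.03 and 0.63, 0.48 and 1, 24.4 and 22.5, 102 and 152 and 185 and 297 TPM at the same stages. It was thus near 0 up to 10 hpf in both pool types and changed by 6.63 ± 0.32 in PNP and 7.51 ± 0.32 in MPNP (limma adjusted p = 1.4e-09 and 4.6e-10). cldn5 (ENSDARG00000043716), whose mammalian counterpart seals endothelial junctions, rose in each of the 4 steps, from 5.17 and 5.88 TPM to 61.8 and 49.9 TPM in PNP (3.12 ± 0.15). cldn3c rose by 3.12 ± 0.35, to 13.0 and 13.1 TPM. cldn1, needed for the skin barrier in mice, was listed at 0 in all 8 libraries of 8 and 10 hpf and stood at 6.25 and 5.99 TPM in PNP and 7.12 and 4.48 TPM in MPNP at 16 hpf (limma adjusted p = 3.4e-07 in PNP). Like cldni, cldn1 passed the filter only through later stages. cldna rose by 1.90 ± 0.34, cldn11 (ENSDARG00000030723) by 1.54 ± 0.26 and cldn2, which in mammals forms a cation pore in leaky epithelia, by 0.55 ± 0.12 (largest limma adjusted p = 0.0016).

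**Figure D3:**
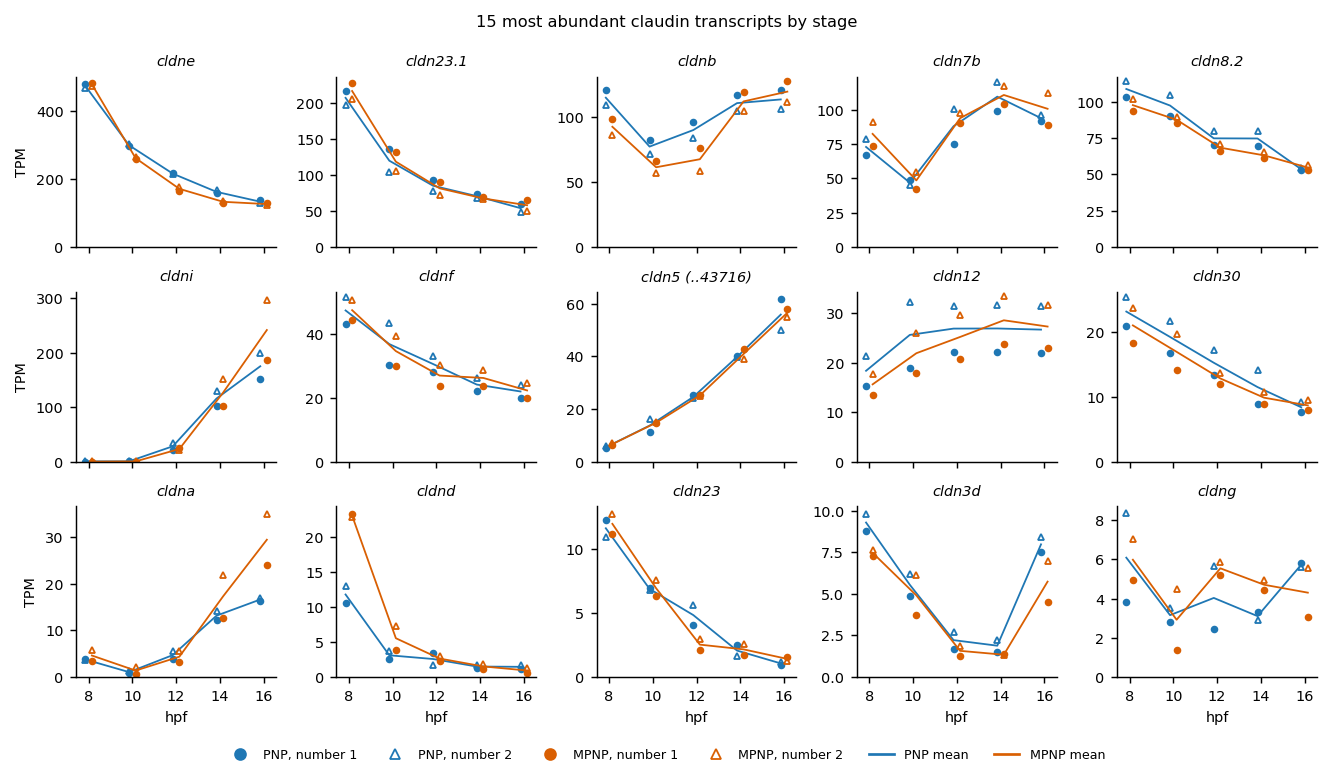
TPM of the 15 most abundant claudins (y axis, from 0) against hours post fertilization (x axis) in PNP (blue) and MPNP (orange); points are libraries, a filled circle for number 1 and an open triangle for number 2, and lines join means of 2 libraries. cldne and cldn23.1 descend from 8 hpf, cldni and cldn5 (ENSDARG00000043716) ascend, and cldnb and cldn7b have their lowest mean at 10 hpf.

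Not every course ran one way: 5 members were called up in one step and down in another, or 11.9% where 6.72% of all genes tested were (limma; steps were averaged over both pool types, 4 libraries per stage). From 8 to 10 hpf cldnb, a claudin of epidermis and lateral line primordium, fell by 0.58 ± 0.11, cldn7b fell by 0.69 ± 0.13 and cldna fell by 1.27 ± 0.24. They then rose, cldn7b by 0.91 ± 0.13 and cldna by 1.36 ± 0.24 from 10 to 12 hpf, and cldnb by 0.51 ± 0.11 from 12 to 14 hpf. cldn3d fell by 1.11 ± 0.17 from 10 to 12 hpf and rose by 1.58 ± 0.17 from 14 to 16 hpf. krt95, described above, was the fifth, but its fall from 14 to 16 hpf lost its call without any one of 7 of the 8 libraries (limma adjusted p up to 0.17) and held only without MPNP library 2 of 16 hpf. In the first step 10 claudins fell and 2 rose, where 15.0% and 21.5% of all genes tested did. The falls of cldnf and cldng each lost their call without any one of 5 of the 8 libraries (limma adjusted p up to 0.17). That of cldn3d was lost without either of 2 libraries (up to 0.063), and the other falls held without any one library. Over all members 6 rose and 10 fell in that step, 11 rose and 6 fell from 10 to 12 hpf, 12 rose and 3 fell from 12 to 14 hpf, and 11 rose and 4 fell from 14 to 16 hpf. The shares of all genes that rose in the 3 later steps were 24.5%, 13.9% and 8.92%, and the shares that fell were 14.1%, 9.08% and 6.76%. The risers included cldni in each of these 3 steps, and krt95 from 10 to 12 and from 12 to 14 hpf. They also included cldn1 and krt18b from 12 to 14 and from 14 to 16 hpf. All of these genes passed the filter only through later stages, so their calls as risers are tied to it. With the replicate block the called members numbered 27, 28, 29 and 30 in the 4 steps, against 16, 17, 15 and 15 without it, and 57.4%, 60.1%, 45.1% and 37.2% of all genes did. The last count was 8 without MPNP library 1 of 14 hpf, PNP library 1 of 14 hpf or MPNP library 2 of 16 hpf, and 9 or 10 without any other library of those stages.

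**Figure D4:**
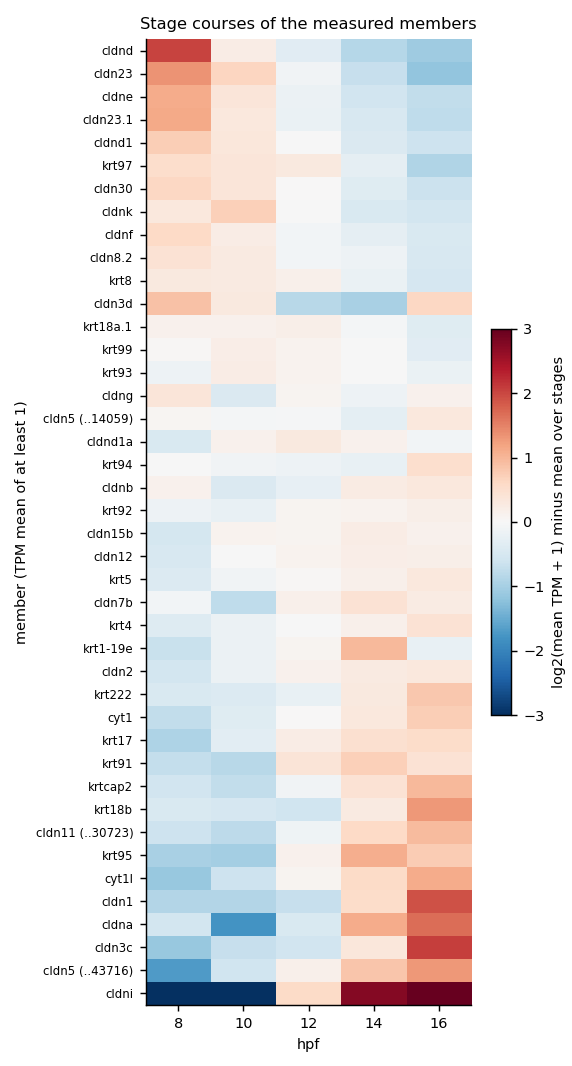
Mean log2 level of the 42 measured members (rows) by stage (columns, hours post fertilization), as the difference from each gene's own mean over stages, with 4 libraries behind each cell; red is higher, blue lower, and the colour scale ends at 3 on either side, which cldni exceeds. Rows run from members that are highest early, with cldnd at the top, to those highest late, with cldni at the bottom.

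Neighbours in the genome did not always share a course. Gene order was taken from the annotation of another assembly, GRCz12tu. In the run krt92, cyt1l, cyt1, krt17 and krt91 each gene had its higher mean at 16 than at 8 hpf in both pool types, and all but krt92 passed in PNP. krt5, krt8 and krt18a.1 also lie side by side, yet krt5 rose while krt8 and krt18a.1 had negative changes. Of the adjacent claudins cldne, cldnf and cldna the first pair fell and cldna rose. The run that holds cldn3c, cldn3d, cldnb, cldnd and cldn30 included a member that rose in PNP (cldn3c) and a pair that fell (cldnd and cldn30), while cldnb and cldn3d changed by -0.02 ± 0.15 and -0.20 ± 0.24. In MPNP cldnb was called as rising, from 99.1 and 86.5 TPM at 8 hpf to 128 and 112 TPM at 16 hpf. That call did not hold in every fit with 1 library left out. Tandem relatives can share reads, and no source used here tells how the authors' counting divided such reads, so levels within a run are uncertain.

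The second question was whether these genes differ between MPNP and PNP pools of the same stage. Averaged over the 5 stages, 5 members were lower in MPNP and 1 was higher, 6 of 42 or 14.3%, where 5.29% of all genes tested were called (2.67% lower, 2.62% higher; limma). The lower ones were cldn2, cldne, krt91, krt95 and cldn5 (ENSDARG00000014059), and the higher one was krt94. The 6 differences lay between -0.49 and 0.35. The median member differed by -0.06 against -0.03 for all genes. With the replicate block 13 members passed, 12 lower and 1 higher, against 17.4% of all genes, 10.4% being lower and 7% higher. The most abundant pair of keratins showed little difference: krt4 by -0.02 ± 0.05 and krt18a.1 by 0.04 ± 0.13, with limma adjusted p of 0.95 and 0.96. The abundant keratins cyt1l, krt17, krt92 and cyt1 were among those that passed as lower only with the block, as given below.

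cldn2 had the smallest p. PNP libraries held 3.06 and 2.81 at 8 hpf, 3.67 and 3.74 at 10 hpf, 4.55 and 4.62 at 12 hpf, 5.04 and 5 at 14 hpf and 4.37 and 5.14 at 16 hpf, in TPM, and MPNP libraries 1.54 and 1.37 at 8 hpf, 2.55 and 2.59 at 10 hpf, 3.69 and 3.56 at 12 hpf, 4.43 and 4.18 at 14 hpf and 4.41 and 5.52 at 16 hpf. Pools did not overlap up to 14 hpf and did at 16 hpf. The mean difference was -0.30 ± 0.06 (limma adjusted p = 0.0058), lower in MPNP in 8 of 10 pairs of equally numbered libraries. At 8 hpf alone cldn2 was lower with a difference of -0.68 ± 0.12 and was the member that passed at a single stage without the block (limma adjusted p = 0.038; 0.311% of all genes were called there). That call was lost without any one of the 4 libraries of the stage (limma adjusted p from 0.093 to 0.29) and with the developmental offset described below removed (0.054). The difference at 16 hpf was above that at 8 hpf by 0.73 ± 0.17, short of the threshold (limma adjusted p = 0.15).

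cldne was level between pools at 8 hpf and lower in MPNP in the middle stages. MPNP libraries held 485 and 475 TPM at 8 hpf, 259 and 265 at 10 hpf, 165 and 178 at 12 hpf, 130.4 and 136 at 14 hpf and 129 and 124 TPM at 16 hpf, to be read against the PNP values above. Pools did not overlap at 10, 12 and 14 hpf. The differences were 0.01 ± 0.08, -0.20 ± 0.08, -0.33 ± 0.08, -0.28 ± 0.08 and -0.08 ± 0.08, and -0.18 ± 0.04 on average (limma adjusted p = 0.014). Single stages did not pass, except 12 and 14 hpf with the replicate block (limma adjusted p = 0.011 and 0.015).

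krt91 was lower in MPNP in 10 of 10 pairs. PNP libraries held 30.8 and 28.0 at 8 hpf, 26.7 and 34.0 at 10 hpf, 73.1 and 59.2 at 12 hpf, 85.3 and 75.3 at 14 hpf and 62.8 and 67.5 at 16 hpf, in TPM, and MPNP libraries 27.1 and 21.6 at 8 hpf, 20.4 and 18.5 at 10 hpf, 57.0 and 47.0 at 12 hpf, 65.3 and 74.2 at 14 hpf and 59.6 and 55.0 at 16 hpf. The pools did not overlap at any of the 5 stages, and the average difference was -0.32 ± 0.07 (limma adjusted p = 0.018). krt95 was lower with a difference of -0.31 ± 0.07 on average (limma adjusted p = 0.016), with 2.47 and 2.71 TPM in MPNP against 3.97 and 4.78 TPM in PNP at 14 hpf and 1.57 and 2.07 against 2.97 and 3.62 TPM at 16 hpf. Its pools did not overlap from 12 hpf on, and before that the gene was near 0 in both. cldn5 (ENSDARG00000014059), the less abundant of 2 IDs with that symbol, was lower with a difference of -0.49 ± 0.12 (limma adjusted p = 0.037), in 8 of 10 pairs, at a mean of 1.65 TPM. At 14 hpf it was at 0.45 and 0.65 TPM in MPNP and 1.38 and 2.09 TPM in PNP. Its pools overlapped at 8 and 12 hpf and did not at 10, 14 and 16 hpf. krt94 was higher in MPNP by 0.35 ± 0.08 (limma adjusted p = 0.027) in 10 of 10 pairs, with 3.41 and 3.39 against 2.39 and 1.88 TPM at 8 hpf and 3.09 and 2.85 against 2.27 and 1.48 TPM at 12 hpf. The krt94 pools overlapped at 10 and 16 hpf and did not at 8, 12 and 14 hpf. The call of krt94 was lost without any one of 12 of the 20 libraries, namely all MPNP libraries numbered 1, all PNP libraries numbered 2 and MPNP library 2 of 8 or 12 hpf (limma adjusted p up to 0.067). That of cldn5 (ENSDARG00000014059) was lost without any one of 15 libraries (up to 0.085), and held only without MPNP library 1 of 10 hpf, PNP library 1 of 8, 12 or 14 hpf or PNP library 2 of 16 hpf. The other 4 members passed without any one library. Within libraries of 1 number alone 0 of the 6 passed, with limma adjusted p from 0.052 to 0.44 over both numbers, and each difference kept its sign. With median-ratio scaling cldne, krt91 and krt94 did not pass (limma adjusted p = 0.081, 0.062 and 0.052).

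**Figure D5:**
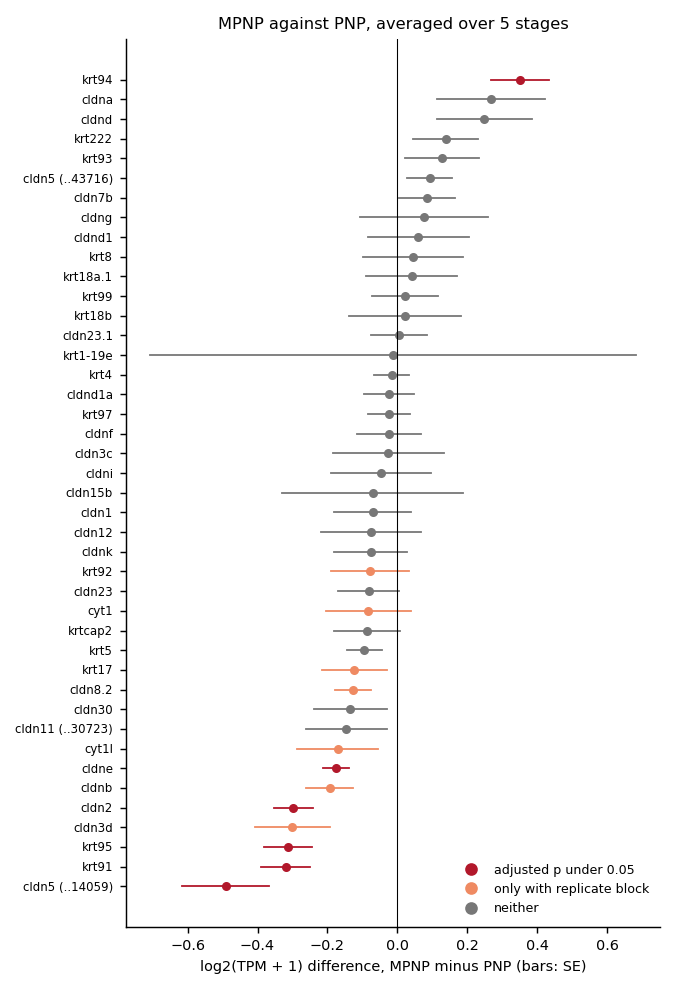
Difference between MPNP and PNP averaged over 5 stages for the 42 measured members (x axis, log2(TPM + 1) difference with SE, 10 libraries per pool type; y axis, members). Red marks an adjusted p under 0.05, orange a call made with the replicate block alone and grey neither; SE bars are from the fit without the block. 5 members in red lie left of 0 and krt94 lies to the right.

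The 7 members that passed only with the block were all lower in MPNP. They were cldnb (-0.19 ± 0.07; limma adjusted p of 0.14, and 0.0013 under the block), cldn3d (-0.30 ± 0.11; 0.15 and 0.019), cldn8.2 (-0.13 ± 0.05; 0.2 and 0.012) and 4 type I keratins of 1 gene run, cyt1l (-0.17 ± 0.12; 0.55 and 0.0013), krt17 (-0.12 ± 0.09; 0.61 and 0.007), krt92 (-0.08 ± 0.11; 0.85 and 0.033) and cyt1 (-0.08 ± 0.12; 0.86 and 0.039), where the SE is that without the block. cyt1l and cldn3d were lower in MPNP in 10 of 10 pairs. cldnb was at 121 and 109.5 TPM in PNP and 99.1 and 86.5 TPM in MPNP at 8 hpf, at 82.9 and 72.0 against 66.2 and 56.8 TPM at 10 hpf and at 96.1 and 84.4 against 76.8 and 58.6 TPM at 12 hpf. Those pools did not overlap, whereas at 16 hpf, with 121 and 106 against 128 and 112 TPM, they did.

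At single stages from 10 hpf on no member passed without the block (limma; 4, 5, 3 and 2 members had an unadjusted p under 0.05 at 10, 12, 14 and 16 hpf), where 0.203%, 0.291%, 0.684% and 1.39% of all genes were called. With the block 2, 3, 3, 1 and 0 members passed at the 5 stages, all of them lower, where 2.08%, 2.02%, 0.609%, 0.359% and 0.927% of all genes were lower. They were cldn2 at 8 hpf, cldnb at 8, 10 and 12 hpf, krt91 at 10 hpf, cyt1l at 10 and 12 hpf and cldne at 12 and 14 hpf. In neither test of pool by stage did a member pass, with or without the block (limma; 3 had an unadjusted p under 0.05 in each without it, where 0.223% of all genes passed in the 16 against 8 hpf test and 0.102% in the F test over stages, and 1.79% and 0.481% with the block). Some gaps between pools were wide in the libraries but did not pass. cldnd was at 10.6 and 12.9 TPM in PNP and 23.2 and 22.8 TPM in MPNP at 8 hpf (0.92 ± 0.30, limma adjusted p = 0.31). At 16 hpf cldna was at 16.4 and 16.9 against 24.0 and 34.9 TPM (0.77 ± 0.34, limma adjusted p = 0.74). Both genes were singled out here after their values were seen.

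Other measures moved with the pool. Along the local stage slope of genes that are no members, MPNP pools lay 0.19, 0.38, 0.38 and 0.20 h behind PNP at 8, 10, 12 and 14 hpf and 0.21 h ahead at 16 hpf. The 2 libraries of a group could lie apart, furthest in MPNP at 12 hpf with -0.02 and -0.36 h from the stage mean. With each library's offset removed the 6 calls of the averaged difference remained, with limma adjusted p from 0.0024 (cldne) to 0.046 (krt95). The differences were then -0.23 for cldne, -0.26 for krt91 and -0.27 for cldn2. They were 0.34 for krt94, -0.51 for cldn5 (ENSDARG00000014059) and -0.24 for krt95. Markers of other tissues were compared in the same way, to be read against the 2.67% of all genes that were lower and 2.62% that were higher, and 10.4% and 7% with the block. Lower in the average were 4 of 8 measured somite and muscle genes, 3 of 13 neural plate genes, 2 of 8 neural crest genes, and 1 each of 6 blood and endothelium, 9 otic and placodal and 6 pronephros genes, while 0 genes of these lists were higher (limma). With the block 7 neural plate genes were lower and 1 was higher, and 6 somite and muscle, 5 otic and placodal and 4 pronephros genes were lower. The neural crest and blood and endothelium counts were the same. The lists share genes: pax2 (ENSDARG00000028148) and pax8, lower with the block, count in both the otic and placodal and the pronephros list. dlx4b, the otic and placodal gene lower without the block, is also among the epidermal regulators below. meox1, a somite gene, was lower with a difference of -0.30 ± 0.06 and sox10, a neural crest gene, with -0.32 ± 0.07 (limma adjusted p = 0.0052 and 0.023). Of 10 yolk syncytial layer genes 1 was higher, ctsb (ENSDARG00000055120; 0.19 ± 0.05), and of the 11 notochord and tailbud, 9 endoderm and 6 hatching gland genes 0 passed (limma; with the block 1 yolk syncytial layer gene was higher and 4 were lower, 1 notochord and tailbud gene was higher and 4 were lower, and 3 endoderm genes and 1 hatching gland gene were lower). The summed level of the 14 enveloping layer and epidermis markers ran from 1739.8 to 1909.8 TPM in PNP and from 1923 to 2140.2 TPM in MPNP at 8 hpf and from 1059 to 1174 against 1223 to 1446 TPM at 16 hpf. Pools did not overlap in that sum at 8, 10, 12 and 16 hpf and did at 14 hpf, with MPNP the higher. The most abundant of these markers, anxa1 (ENSDARG00000026726), made up from 18.0% to 65.9% of the sum in a library. Its own values overlapped between pools at 8 hpf, with 951 to 1200 TPM in PNP and 1112 to 1409 TPM in MPNP. At the later stages they did not overlap, with MPNP the higher. Without anxa1 the sum of the other markers overlapped between pools at every stage, with 710.0 to 789 TPM in PNP against 731 to 811 TPM in MPNP at 8 hpf and 850.3 to 963 against 857 to 1108 TPM at 16 hpf. The part of tissue makeup in the claudin and keratin differences was not tested.

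Other epithelial genes were read from lists of junction, filament and epidermis genes. Their counts with stage in PNP stand against 37.7% of all genes that rose and 26.6% that fell, and their pool counts against the shares just given. Of 33 measured tight junction partners of the claudins 13 rose and 11 fell from 8 to 16 hpf in PNP. The scaffold gene tjp1b rose by 2.61 ± 0.15, and magi1 (ENSDARG00000003169) and the cingulin gene cgnb fell by 2.27 ± 0.12 and 1.94 ± 0.12 (largest limma adjusted p = 1.1e-08). In the averaged pool difference jam2b, a junctional adhesion molecule, was higher in MPNP by 0.95 ± 0.16 and its relative jam2a lower with a difference of -0.53 ± 0.09 (limma adjusted p = 0.0035 and 0.0043), the 2 of 33 that passed; with the block 3 were higher and 2 lower. Of 24 adherens junction and desmosome genes 5 rose and 13 fell with stage. The desmosomal plakophilin gene pkp2 was higher in MPNP by 0.59 ± 0.09 (limma adjusted p = 0.0019) and was the 1 that passed between pools without the block, against 3 higher and 2 lower with it. Of 37 epidermal regulators 12 rose and 19 fell with stage, and 3 were higher and 1 lower in MPNP, or 5 and 3 with the block. foxi1 was higher by 0.60 ± 0.09, bmp2 (ENSDARG00000041430), a ligand that favours ventral fates, by 0.28 ± 0.04, and the homeobox gene dlx4b was lower with a difference of -0.37 ± 0.08 (limma adjusted p = 0.0012, 0.0019 and 0.019).

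Basal epidermis and basement membrane genes mostly rose with stage, 15 of 21 measured against 3 that fell. itga3 (ENSDARG00000012824), an integrin chain, rose by 4.29 ± 0.20 and egfl6 by 4.79 ± 0.20, and egfl6 was lower in MPNP with a difference of -0.68 ± 0.09 (limma adjusted p = 0.00044). It was the 1 of the 21 that passed between pools without the block; with it 1 was higher and 3 were lower. Of 10 ionocyte and mucous cell genes 8 rose and 2 fell with stage, among the risers foxi3a, a regulator of ionocytes, by 2.74 ± 0.17, and foxi1 was the 1 that passed between pools, against 2 with the block, both higher. Of 13 other intermediate filament genes and partners 4 rose and 3 fell with stage. The glial filament gene gfap rose by 5.29 ± 0.21 and vim, which encodes vimentin, by 3.19 ± 0.18. In the averaged pool difference 0 of the 13 passed (limma; 3 lower with the block). Of the 14 enveloping layer and epidermis markers 5 rose and 7 fell with stage, and anxa1 (ENSDARG00000026726), an annexin, was higher in MPNP by 0.37 ± 0.07 (limma adjusted p = 0.01) and with stage fell by 2.34 ± 0.17.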

How the data were processed

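Poly(A)-selected RNA of pooled zebrafish embryos was sequenced as paired reads of 150 bases, per the labels' protocols. The authors deposited TPM values for 32057 Ensembl gene IDs in 20 libraries, rounded to 2 decimals, with 4 further unnamed columns that hold no values and were not used. Per the submitters' processing notes the build was GRCz11 and the tools were R 4.3.3, DESeq2 1.42.1, HTSeq 0.12.3, RSEM 1.3.3 and STAR 2.7.3a, with no step given for each; no source says whether strand was used. A gene name table matched 28988 IDs.

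Values were analysed as log2(TPM + 1) with limma 3.58.1 in R 4.3.3, on 14774 genes with a mean of at least 1 TPM, with 1 mean per group over all 20 libraries, which share one estimate of the spread, and an intensity trend in the moderation; fold changes on this scale understate those of low genes. The fit was tested on simulated data whose spread was drawn independently for each library. That test does not cover the shared deviation of same-numbered libraries given below. Alternatives were a pseudocount of 0.1 TPM, no filter, median-ratio scaling, no trend, a replicate block, removal of developmental offsets, single stages or replicate numbers, and leaving out each library. Same-numbered MPNP and PNP libraries deviated together, at correlations across genes of 0.485, 0.586, 0.615, 0.539 and 0.601 at the 5 stages, and in 20 of 20 libraries the best match outside the group had the same number. On that basis, and with no label to say so, equal numbers were treated as pairs in the replicate block and in the counts of pairs. The main fit, which gave all calls and SEs not marked as blocked, did not use the pairs.

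The members, lists and tests were chosen with earlier results of these data known. Named are the 12 most abundant members, those called between pools, the 10 with the largest called change in each direction from 8 to 16 hpf in PNP, up to 3 in each direction per step, and up to 3 genes per list. In the lists 206 entries matched exactly, 83 after a paralog letter was dropped and 22 did not match. Gene order came from the GRCz12tu annotation. Sequences are not shown.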

Additional observations from a re-analysis of the deposited data

How the results depend on the processing

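Counts of called members were compared across all settings. For the averaged pool difference (6 members) they were 3 with median-ratio scaling, 13 with the replicate block, 1 in libraries numbered 1 alone and 0 in those numbered 2 alone (limma; 10 libraries each), and from 4 to 6 without one library. The 6 kept their sign in every setting. cldn2, krt95 and cldn5 (ENSDARG00000014059) kept their call with median-ratio scaling, and 0 of the 6 within a single number. krt95 lost its call with the pseudocount of 0.1 (adjusted p = 0.14) and cldn5 (ENSDARG00000014059) without the filter (0.058). At 8 hpf the count of 1 became 2 with the block, 0 with the offset removed, 0 in a fit to that stage alone and 0 without any one library. At 10, 12 and 14 hpf the counts of 0 became 3, 3 and 1 with the block, and at 16 hpf 1 with median-ratio scaling; without one library they, and those of the pool by stage tests, were 0. The stage counts in PNP and MPNP (29 each) were from 28 to 30 and from 27 to 29 without one library, but 35 and 36 with the block. No share of all genes is given for these blocked stage counts, so they are not read as a result about the members. With the block the steps gave 27, 28, 29 and 30, and without one library from 11 to 17, 17 to 18, 10 to 14 and 8 to 10. The count for the replicate number (28) was from 27 to 29 without one library. Median-ratio scaling moved the median of all genes by -0.10 in that comparison, and krt4 and cldne, not called before, were then called at -0.11 and -0.12. The causes of these changes were not tested. TPM holds no depth, so precision at low levels is unknown.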

Other observations

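The 23 members below the mean of 1 TPM had 3.46 TPM (krt15) as the highest single value, and none was listed at 0 in all 20 libraries. They included some relatives of claudins known from gut, kidney and myelin. cldn15a and cldn15la, of the intestinal claudin 15 family, reached at most 0.78 and 0.84 TPM. cldn18, of stomach and lung in mammals, reached 0.77 TPM, and cldn19, of kidney tubules and myelin in mammals, 0.42 TPM. Other such relatives were measured. cldn15b, also of the claudin 15 family, had a mean of 2.48 TPM and reached 4.67 TPM, and cldnk, named above for myelin-forming glia, reached 7.22 TPM. cldn7a reached 0.27 TPM and was listed at 0 in 16 libraries, while its paralog cldn7b had a mean of 84.6 TPM. krt18a.2, next to the abundant krt18a.1 in the GRCz12tu order, reached 0.85 TPM. cldnj, first in the run of cldne, cldnf and cldna, reached 0.23 TPM and was listed at 0 in 14 libraries. Just above the threshold lay krt18b with a mean of 1.2 TPM and just below it krt15 with 0.616 TPM. krt15 was between 0 and 0.25 TPM in the libraries numbered 1 and between 0.35 and 3.46 TPM in those numbered 2.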
